A study of Rattus norvegicus with 115 samples.

Results

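The genes described here are P2ry12, Gpr34, Cx3cr1, Sall1, Tmem119, Siglec5 and Trem2. These 7 genes are grouped under the label of microglia in the resting, or homeostatic, state. The label is a name for the set, and whether it holds for each member in these tissues was not tested. The genes were chosen by name, with earlier results of these data known, and all 7 were measured. The choice was made among the 14217 genes that had at least 1 probe set annotated to a single gene symbol. Counts of called members beside the share of all genes are therefore a description and not independent support. P2ry12 and Trem2 had 2 probe sets each and were followed through the one that was brighter on average over all arrays; the other members had 1 each. No filter on dim values was applied.

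Fisher rats carried a brain tumour grown from 100000 9L cells, a rat glioma line that the labels call glioblastoma, placed in the right caudate nucleus. After 10 days the rats received synchrotron microbeam radiation (MRT, an array of narrow beams with 400 Gy in the beams and 18 Gy in the valleys between them), a seamless broad beam of 17.4 Gy (BB), or no irradiation, and the study compared how the tumour and the hemisphere opposite to it responded. The 28 MRT tumours comprised 9 at 6 h, 8 at 48 h, 7 at 8 d and 4 at 15 d; there were 6, 4, 4 and 4 BB tumours at the same times, and 5, 4 and 4 untreated tumours up to 8 d. Contralateral samples numbered 9, 7, 6 and 4 after MRT, 6, 3, 4 and 4 after BB, and 5, 4 and 4 without irradiation. In all, 115 Affymetrix arrays from 60 rats were analysed, 59 of tumour and 56 of contralateral tissue, with both tissues from 55 rats. Every rat, the untreated ones included, bore a tumour, so the contralateral tissue comes from tumour-bearing brains. The age of the rats was not given in the sources used here.

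Microglia are the resident macrophages of the brain. In the healthy brain they carry a set of surface receptors and transcription factors that set them apart from blood-borne macrophages, and after injury they are known to lower part of this set while they take on activation genes. P2ry12 is the ADP receptor that draws microglial processes toward damaged cells, Gpr34 is a receptor for lysophosphatidylserine, and Cx3cr1 is the receptor for the neuronal chemokine Cx3cl1. Sall1 is a zinc-finger transcription factor that, in mouse, maintains microglial identity. Tmem119 is a transmembrane protein used in mouse and human to tell microglia from infiltrating macrophages, although other cell types, bone-forming cells among them, express it too. Siglec5 belongs to the lectins that bind sialic acid on immune cells. Trem2 is a lipid-sensing receptor that signals through the adaptor Tyrobp and is known for its role in the phagocytic, activated state.

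The promoters of Gpr34, Cx3cr1, Siglec5 and Trem2 are shown because only these 4 members had a window in the promoter sequences used here. Windows of P2ry12, Sall1 and Tmem119 were not among them. The 4 members shown were also those called higher in MRT tumours than in untreated tumours at 8 d, as described further on. Each sequence runs from 250 bases before to 50 bases after the gene's start, from RefSeq on the rat build GRCr8, 5′ to 3′ on the gene's strand. Capitals mark GAGGAA, the core of the sequence that the myeloid factor PU.1 is known to bind, which was searched on both strands and appears here as its reverse complement.
Gpr34 (chrX:11785787-11786086, minus strand): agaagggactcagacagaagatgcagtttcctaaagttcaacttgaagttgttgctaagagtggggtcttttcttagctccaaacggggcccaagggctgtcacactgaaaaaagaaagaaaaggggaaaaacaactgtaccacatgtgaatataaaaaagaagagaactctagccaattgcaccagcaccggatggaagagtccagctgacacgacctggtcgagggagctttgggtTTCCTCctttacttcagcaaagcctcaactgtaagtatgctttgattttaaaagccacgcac
Cx3cr1 (chr8:128677017-128677316, minus strand): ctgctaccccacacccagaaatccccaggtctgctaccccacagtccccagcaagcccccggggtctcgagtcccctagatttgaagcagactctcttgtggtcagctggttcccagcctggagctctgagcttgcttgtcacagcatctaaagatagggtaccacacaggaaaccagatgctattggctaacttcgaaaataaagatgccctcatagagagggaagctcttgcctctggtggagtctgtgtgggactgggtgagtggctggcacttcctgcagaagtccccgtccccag
Siglec5 (chr1:102904656-102904955, plus strand): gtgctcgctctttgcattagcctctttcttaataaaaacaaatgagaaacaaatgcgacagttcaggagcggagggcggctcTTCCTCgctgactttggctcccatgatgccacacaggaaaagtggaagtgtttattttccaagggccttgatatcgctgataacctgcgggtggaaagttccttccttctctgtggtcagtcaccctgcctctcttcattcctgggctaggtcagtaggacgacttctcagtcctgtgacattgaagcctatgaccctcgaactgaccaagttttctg
Trem2 (chr9:20151730-20152029, minus strand): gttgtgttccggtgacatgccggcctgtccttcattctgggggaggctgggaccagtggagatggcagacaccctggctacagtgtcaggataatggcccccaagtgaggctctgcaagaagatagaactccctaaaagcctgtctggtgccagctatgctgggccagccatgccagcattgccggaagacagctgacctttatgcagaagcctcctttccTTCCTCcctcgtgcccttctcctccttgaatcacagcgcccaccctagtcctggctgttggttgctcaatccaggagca
Gpr34 had 1 match that began 12 bases before the start, Trem2 had 1 at 29 bases and Siglec5 had 1 at 168 bases, whereas the Cx3cr1 window had none. GAGGAA occurred in 27.6% of 33469 RefSeq rat promoters of this length, so the 3 matches are a description of these windows and no more. The longer form GAGGAAGT, which contains GAGGAA and was found in 2.42% of promoters, was in none of the 4.

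Levels are given as the log2 of the deposited intensity, and changes as a log2 difference ± standard error, so that 1 unit is a doubling. Limma was fitted across all 14217 genes, and a gene was called at a Benjamini-Hochberg adjusted p under 0.05. Levels of different genes come from different probes and were not compared with each other. All comparisons at one time and tissue share their untreated samples, so a like result for MRT and BB against the same controls is not independent. The BB arrays carry their own set of labels and their own processing note, and whether all arrays were normalised in one run was not given in the sources used here. Whatever separates BB from the other groups cannot be told apart from what separates the sets of arrays. In bulk tissue, fewer microglia and less RNA per microglial cell cannot be told apart.

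Some arrays stood apart. In MRT rats 7 and 10 at 6 h the mean of 9 neutrophil genes was 5.30 and 5.16 log2 in the contralateral hemisphere, against 6.22 to 6.83 in the other 7 MRT rats. In untreated rat 18 at 48 h the mean of 9 astrocyte genes was 9.90 in the contralateral sample, against 11.23 to 11.38 in the other 3 rats. MRT tumours of rats 37 and 38 at 8 d had a mean of 7.98 and 7.86 for 9 tumour and proliferation genes, against 9.40 to 10.09 in the other 5. The BB tumour of rat 47 at 6 h had a mean of 8.23 for that list, and the untreated tumour of rat 5 at 6 h had a pan-myeloid mean of 10.55, outside the ranges of the other BB and untreated 6 h tumours at 10.14 to 10.89 and 9.18 to 9.28. Where a call changed without these arrays, the value without them is given beside the result; the fits without MRT rats 7 and 10, MRT tumours 37 and 38 and BB tumour 47 were added after the data were seen.

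Without irradiation, 2 of the 7 genes were called between tumour and contralateral tissue. The tissue labels fitted their markers, since all 9 tumour and proliferation genes were higher in tumours and 13 of 15 neuron genes lower. P2ry12 ran from 8.16 through a median of 9.30 to 10.01 log2 in 13 untreated tumours, and from 5.81 through 9.23 to 9.96 in 13 untreated contralateral samples, with a difference of 0.21 ± 0.27. Gpr34, Cx3cr1, Sall1 and Siglec5 differed by -0.14 ± 0.24, -0.19 ± 0.12, 0.07 ± 0.12 and -0.14 ± 0.23 and were not called. Both genes that limma called were higher in tumours, in a comparison in which 81.1% of all genes were called. One was Trem2, at 0.33 ± 0.14 (adjusted p = 0.026), which came to 0.06 ± 0.14 after all arrays were shifted to a common median, where Cx3cr1 in turn was lower in tumours by -0.46 (adjusted p = 0.00042). The Trem2 call was also lost without the untreated tumour of rat 5, 17 or 29 (adjusted p = 0.075, 0.051 and 0.069). Over the same samples, 13 of 15 pan-myeloid genes and 18 of 22 activated-microglia genes were higher in tumours, with median differences of 1.37 and 1.25 against -0.03 over all genes. The differences of the 5 members that were not called ran from -0.19 to 0.21.

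The other was Tmem119, whose values in tumours went against its use as a microglia marker. It ran from 10.51 through 12.28 to 12.67 log2 in untreated tumours, against 7.89, 8.30 and 10.10 in untreated contralateral samples. The groups did not overlap, and the difference was 3.55 ± 0.28 (adjusted p = 9.5e-21). Over the 59 tumour arrays the genes most like Tmem119 were Lamb1, which encodes a laminin chain of the basement membrane, Pcolce, an enhancer of procollagen processing, and the nucleoside transporter Slc29a1, with Pearson r of 0.97, 0.97 and 0.96, and r was 0.96, 0.95 and 0.96 after group means were removed. Its r with the other 6 members ran from -0.69 for Cx3cr1 to 0.004 for Sall1 in tumours. With the mean of the tumour and proliferation list it was 0.87 over the 59 tumour arrays and 0.68 over the 56 contralateral arrays, points that share array and processing. For these reasons Tmem119 in tumours is described by its own level and is not read as a level of microglia.

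**Figure D1:**
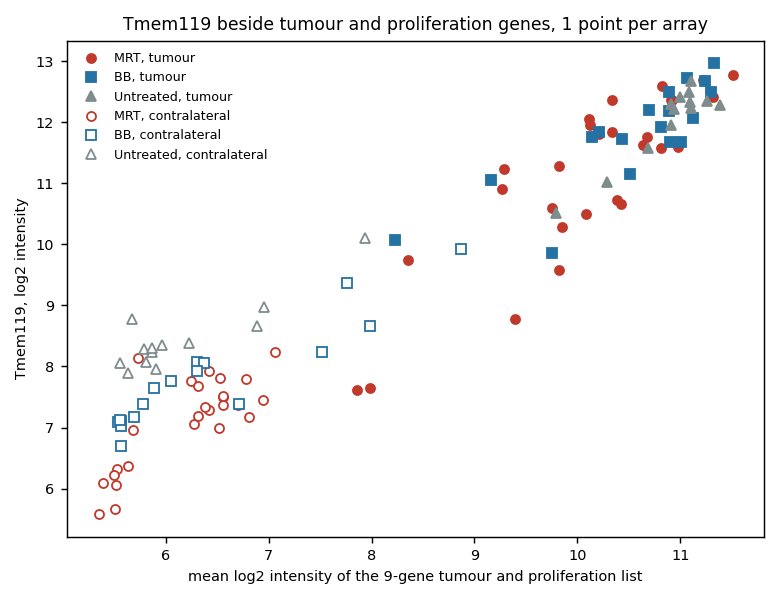
Level of Tmem119 (log2 intensity, vertical) against the mean log2 intensity of 9 tumour and proliferation genes (horizontal), 1 point per array, with MRT, BB and untreated arrays by colour and shape, tumours filled and contralateral samples open. Tumour arrays lie to the upper right, and the contralateral arrays with the highest list means, such as untreated rat 30 and BB rat 60, lie nearest to them.

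At 6 h after irradiation most of these genes fell in the contralateral hemisphere. Limma called 6 of 7 members after MRT and 5 of 7 after BB, all of them lower, while 8.22% and 21.6% of all genes were called. The median over the members was -0.94 after MRT and -0.80 after BB, against -0.01 over all genes in both. P2ry12 was the member with the largest difference. It ran from 4.86 through a median of 5.52 to 7.75 log2 in 9 MRT samples and from 6.09 through 6.55 to 7.09 in 6 BB samples, against 9.08, 9.15, 9.18, 9.21 and 9.28 in untreated samples. Every irradiated sample was below every untreated one. The difference was -3.29 ± 0.34 after MRT, a 9.75-fold lower level (adjusted p = 9.9e-11), and -2.59 ± 0.37 after BB, 6.04-fold lower (adjusted p = 9.3e-07).

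Gpr34 ran from 4.32 through 4.95 to 7.63 log2 in MRT samples and from 5.98 through 6.39 to 6.66 in BB samples, against 6.67, 6.75, 7.03, 7.32 and 7.59 in untreated samples. All BB samples and 8 of 9 MRT samples were below the lowest untreated one, and the highest was MRT rat 7. The difference was -1.82 ± 0.27 after MRT (adjusted p = 1.2e-06) and -0.71 ± 0.29 after BB, which was not called (adjusted p = 0.078). Sall1 ran from 6.67 through 7.26 to 7.71 in MRT samples and from 7.25 through 7.45 to 7.61 in BB samples, against 7.90, 8.11, 8.12, 8.22 and 8.31 in untreated samples. Neither irradiated group overlapped with the untreated one, and the differences were -0.94 ± 0.13 and -0.69 ± 0.14 (adjusted p = 3.4e-07 and 0.00054). Tmem119 ran from 5.58 through 6.23 to 8.13 in MRT samples and from 6.70 through 7.10 to 7.38 in BB samples, against 7.89, 8.05, 8.07, 8.23 and 8.35 in untreated samples. Only MRT rat 10 reached the untreated range, and the differences were -1.74 ± 0.29 and -1.05 ± 0.31 (adjusted p = 9.3e-06 and 0.012).

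The lectin Siglec5 and the receptor Trem2 also fell. Siglec5 ran from 5.58 through 5.98 to 6.32 log2 in MRT samples and from 4.17 through 4.88 to 5.21 in BB samples, against 6.30, 6.41, 6.60, 6.75 and 6.79 in untreated samples. BB samples lay below both other groups, and MRT rats 10 and 14 reached the untreated range. The differences were -0.54 ± 0.15 after MRT (adjusted p = 0.012) and -1.81 ± 0.16 after BB (adjusted p = 2.4e-12), and the first was not called without untreated rat 3 or 5 (adjusted p = 0.05 and 0.051). Trem2 ran from 6.29 through 6.57 to 7.37 in MRT samples and from 6.44 through 6.67 to 6.84 in BB samples, against 7.21, 7.41, 7.46, 7.48 and 7.79 in untreated samples. BB samples were all below the untreated ones, as were 8 of 9 MRT samples, and the differences were -0.82 ± 0.13 and -0.80 ± 0.14 (adjusted p = 1.9e-06 and 2.7e-05). Cx3cr1 was not called, at -0.32 ± 0.13 after MRT and -0.29 ± 0.14 after BB (adjusted p = 0.15 and 0.14). Some of the irradiated samples were dim. In intensity units Siglec5 ran from 18 to 37 after BB, and the medians after MRT were 46 for P2ry12 and 31 for Gpr34. Array medians lay between 117 and 165, and the lowest value on any array was 7. How well such dim values measure the size of a fall was not tested.

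Without MRT rats 7 and 10, the MRT differences in the contralateral hemisphere were -3.71 for P2ry12, -2.13 for Gpr34, -1.07 for Sall1, -2.07 for Tmem119, -0.52 for Siglec5 and -0.93 for Trem2, and the same 6 members were called. Other gene lists moved in these samples at the same time, while 8.22% of all genes were called after MRT and 21.6% after BB. After MRT, 12 of 22 activated-microglia genes and 7 of 9 neutrophil genes were higher and none lower, and 5 of 15 pan-myeloid genes were higher and 4 lower, while 4 of 7 endothelial genes were lower and none higher. The mean of the neutrophil list ran from 5.16 to 6.83 log2 after MRT, against 4.63 to 5.01 in untreated samples, and that of the endothelial list from 6.63 to 7.85, against 7.94 to 8.16. After BB, 7 of 22 activated-microglia genes were higher and 1 lower, 3 of 9 neutrophil genes were higher and 3 of 7 endothelial genes were lower. The part of these cell types in the fall of the members was not tested. The median difference of the 7 endothelial genes was -1.02 after MRT and -0.45 after BB.

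**Figure D2:**
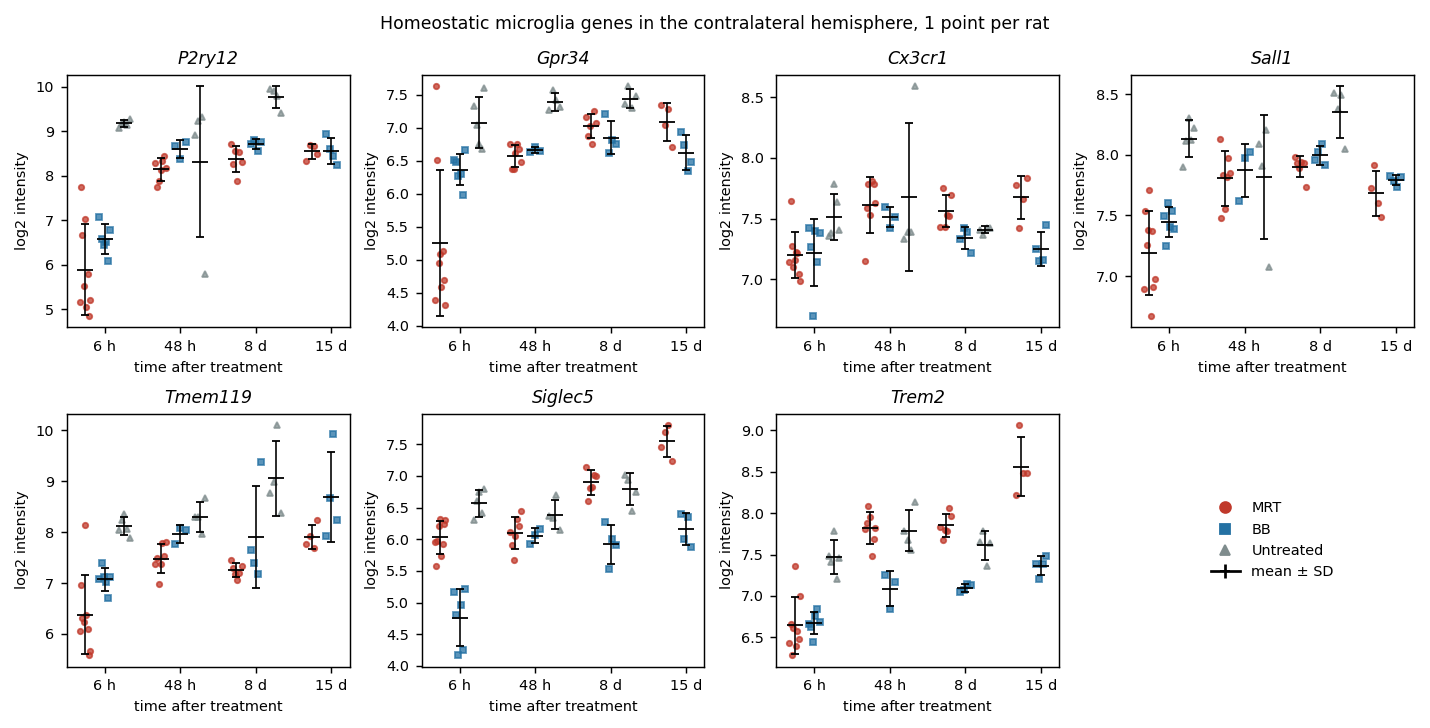
Levels of the 7 genes (log2 intensity, vertical) in the contralateral hemisphere by time after treatment (horizontal), with MRT, BB and untreated samples from left to right at each time and no untreated sample at 15 d; points are rats and bars are mean ± SD. P2ry12 sits between 4.86 and 7.75 in MRT samples at 6 h, below all untreated samples, and Trem2 and Siglec5 are higher in MRT than in BB samples at 8 d and 15 d.

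Some other genes of the homeostatic set fell too. Of 17 measured genes in a list of other homeostatic microglia genes, 5 were lower after MRT and 8 after BB in the contralateral hemisphere at 6 h, and none was higher. Over all genes, 5.36% were higher and 2.86% lower after MRT, and 8.92% were higher and 12.6% lower after BB. Golm1, a Golgi membrane protein, was lower by -1.64 ± 0.13 after MRT and -1.30 ± 0.14 after BB (adjusted p = 1.1e-14 and 6.6e-10). The fructose transporter Slc2a5 and the leukotriene synthase Ltc4s were lower after MRT by -0.76 ± 0.12 and -0.69 ± 0.11 (adjusted p = 4.8e-06 and 2.9e-06). Among 17 measured ligands, adaptors and regulators, 2 were higher and 1 lower after MRT, and 1 was higher and 4 lower after BB. With 8.22% and 21.6% of all genes called, these counts are not read as a result about the list. Csf1r, the receptor on which microglial survival depends, was lower by -1.07 ± 0.16 and -1.18 ± 0.18 (adjusted p = 1.7e-06 and 2.2e-06). Tyrobp, the adaptor through which Trem2 signals, was higher after MRT by 0.91 ± 0.15 (adjusted p = 6.9e-06) while Trem2 itself was lower. The interferon regulatory factor Irf8, which microglia need to develop in mouse, was higher by 1.13 ± 0.19 and 0.90 ± 0.21 (adjusted p = 1.3e-05 and 0.0013).

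In the tumour, P2ry12, Gpr34, Sall1 and Trem2 fell at 6 h after MRT, and P2ry12, Sall1, Siglec5 and Trem2 after BB. Limma called 4 of 7 members after MRT and 4 of 7 after BB, all lower, against 1.42% and 17.4% of all genes. P2ry12 ran from 5.36 through 6.60 to 9.38 log2 in 9 MRT tumours and from 7.09 through 7.81 to 9.25 in 6 BB tumours, against 9.16, 9.30, 9.53, 9.54 and 10.01 in untreated tumours. Only MRT rat 7 and BB rat 47 reached the untreated range. The differences were -2.66 ± 0.39 after MRT (adjusted p = 1.1e-05), or -3.03 ± 0.35 without MRT rats 7 and 10, and -1.56 ± 0.43 after BB (adjusted p = 0.0087), or -1.83 ± 0.43 without BB rat 47 (adjusted p = 0.0027).

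Gpr34 ran from 4.46 through 5.36 to 8.55 log2 in MRT tumours and from 5.93 through 6.95 to 7.99 in BB tumours, against 7.25, 7.40, 7.57, 7.79 and 7.92 in untreated tumours. It fell after MRT by 1.85 ± 0.39 on the log2 scale (adjusted p = 0.004) and was not called after BB (-0.60 ± 0.43, adjusted p = 0.32), where 3 of 6 tumours lay within the untreated range or above it. Trem2 ran from 6.49 through 6.98 to 7.76 in MRT tumours and from 6.73 through 7.07 to 8.20 in BB tumours, against 7.81, 7.90, 7.99, 8.04 and 8.97 in untreated tumours. MRT tumours were all below the untreated ones. The differences were -1.06 ± 0.24 (adjusted p = 0.0093) and -0.84 ± 0.26 (adjusted p = 0.022), and without untreated rat 5, the highest, they were -0.85 and -0.64 and were no longer called (adjusted p = 0.072 and 0.11). The BB call of Trem2 was also lost with the mean over its probe sets (-0.83, adjusted p = 0.058) and with quantile normalization (-0.71, adjusted p = 0.054). Sall1 was lower by -0.80 ± 0.21 after MRT and -0.67 ± 0.23 after BB (adjusted p = 0.029 and 0.032), and neither call held without untreated rat 2, 3 or 4 (adjusted p from 0.068 to 0.12). The BB call of Sall1 was also lost with the arrays shifted to a common median (-0.57, adjusted p = 0.051) and with quantile normalization (-0.54, adjusted p = 0.065). With the mean of the neuron list as a covariate it was -0.53 and not called (adjusted p = 0.057). Siglec5 ran from 4.81 through 5.21 to 5.52 in BB tumours, all below the untreated tumours at 5.95, 6.27, 6.43, 6.54 and 7.46. Its difference was -1.34 ± 0.46 after BB (adjusted p = 0.034) and -0.46 ± 0.42 after MRT, which was not called. The BB call was lost without untreated rat 3, 4 or 5 (adjusted p = 0.06, 0.054 and 0.12) and without BB rat 47 (-1.29, adjusted p = 0.051). It was also lost with array quality weights (-1.07, adjusted p = 0.053) and with the neuron covariate (-1.14, adjusted p = 0.055). Cx3cr1 and Tmem119 were not called after either beam. Dim values occurred here too. In intensity units Siglec5 ran from 28 to 46 in BB tumours, and the median of Gpr34 in MRT tumours was 41.

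Of these 8 calls in tumours, 6 were lost when the spread came from the compared groups alone and not from all tumour groups. In that fit the adjusted p was 0.17 for Gpr34, 0.17 for Sall1 and 0.056 for Trem2 after MRT, and 0.075 for P2ry12, 0.12 for Sall1 and 0.14 for Trem2 after BB. No difference between tissues in the 6 h change was called. The MRT effect in tumours minus that in the contralateral hemisphere was 0.62 ± 0.53 for P2ry12, -0.04 ± 0.49 for Gpr34 and -0.23 ± 0.28 for Trem2. Limma called 0 of 7 members in this comparison for MRT and 0 of 7 for BB, with 1 and 0 members at an unadjusted p under 0.05, while 0.886% and 1.53% of all genes were called. The Tmem119 difference had the lowest p of these for MRT, at 1.42 ± 0.57 (adjusted p = 0.59).

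Between 6 h and 48 h most members rose in the contralateral hemisphere after MRT. Limma called 6 of 7 members higher at 48 h than at 6 h after MRT and 2 of 7 after BB, against 12.5% and 3.15% of all genes, in comparisons chosen after the data were seen. P2ry12 ran from 7.75 through 8.17 to 8.46 log2 in 7 MRT samples at 48 h and was 8.38, 8.66 and 8.77 in BB samples, against 8.93, 9.23, 9.33 and 5.81 in untreated samples, the last from rat 18. All MRT samples at 48 h were at or above the highest MRT sample at 6 h. The change was 2.25 ± 0.31 after MRT and 2.02 ± 0.44 after BB (adjusted p = 1.8e-07 and 0.0026). Gpr34, Sall1, Tmem119, Cx3cr1 and Trem2 rose after MRT by 1.32 ± 0.25, 0.61 ± 0.12, 1.10 ± 0.26, 0.41 ± 0.12 and 1.17 ± 0.11. Siglec5 rose after BB by 1.30 ± 0.19 (adjusted p = 4.7e-06) and differed by 0.07 ± 0.14 after MRT, which was not called.

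Against untreated samples at 48 h, limma called 2 of 7 members after MRT and 1 of 7 after BB, all lower, while 32.2% and 21.6% of all genes were called. At this time the median of all genes was itself -0.11 after MRT and -0.15 after BB. For P2ry12 the difference turned on untreated rat 18. With this rat it was -0.18 ± 0.39 after MRT and 0.28 ± 0.47 after BB, and without it -1.02 ± 0.32 (adjusted p = 0.035) and -0.56 ± 0.38 (adjusted p = 0.42). Gpr34 ran from 6.38 through 6.61 to 6.75 in MRT samples, all below 7.27, 7.31, 7.42 and 7.57 in untreated samples. Its difference was -0.82 ± 0.31 (adjusted p = 0.036), which became -0.84 ± 0.34 (adjusted p = 0.12) without rat 18, and the call was also lost without untreated rat 16 or 17 (adjusted p = 0.066 and 0.051). Tmem119 was lower after MRT by -0.82 ± 0.32 (adjusted p = 0.046), by -0.70 ± 0.36 (adjusted p = 0.25) without that rat, and not called without untreated rat 15 or 16 (adjusted p = 0.061 and 0.059). Trem2 was 6.84, 7.17 and 7.25 in BB samples, below 7.55, 7.67, 7.79 and 8.13 in untreated samples, a difference of -0.70 ± 0.17 (adjusted p = 0.0067), or -0.58 ± 0.18 (adjusted p = 0.054) without rat 18 and -0.58 ± 0.20 (adjusted p = 0.06) without BB rat 51. This call was also lost with the compared groups alone in the fit (adjusted p = 0.6). After MRT Trem2 differed by 0.03 ± 0.14 and ran from 7.48 through 7.82 to 8.09.

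In tumours at 48 h no member was called by limma after MRT or BB, with 3 and 2 members at an unadjusted p under 0.05, and 2.35% and 2.6% of all genes were called. P2ry12 ran from 7.98 through 8.40 to 8.99 log2 in 8 MRT tumours and was 7.75, 8.15, 8.18 and 9.07 in BB tumours, against 8.99, 9.09, 9.82 and 9.83 in untreated tumours. The differences of -0.94 ± 0.43 and -1.14 ± 0.50 were not called (adjusted p = 0.28 and 0.19). Compared with 6 h, MRT tumours had risen in 3 of 7 members and fallen in none, against 9.77% of all genes called. These were P2ry12 at 1.64 ± 0.34, Gpr34 at 1.10 ± 0.34 and Trem2 at 1.44 ± 0.21 (adjusted p = 0.00093, 0.031 and 5.4e-06). The Gpr34 call was lost with the arrays shifted to a common median (0.99, adjusted p = 0.065), with quantile normalization (0.96, adjusted p = 0.06) and with the compared groups alone in the fit (adjusted p = 0.13). Trem2 ran from 8.27 through 8.47 to 9.05 in MRT tumours at 48 h, above all untreated tumours of that time at 7.65, 7.75, 8.04 and 8.19, with a difference of 0.62 ± 0.27 that was not called (adjusted p = 0.24). In BB tumours no member was called between 6 h and 48 h by limma, with 2 at an unadjusted p under 0.05, while 23.5% of all genes were; without BB rat 47 Trem2 was higher at 48 h by 0.91 (adjusted p = 0.017).

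At 8 d several members differed between MRT tumours and untreated tumours of the same time. Limma called 4 members higher and 1 lower in MRT tumours, in a comparison that called 47.8% of all genes. The 4 were the receptors Gpr34 and Cx3cr1, the lectin Siglec5 and Trem2, whose promoters are printed above. Trem2 ran from 8.27 through 8.90 to 9.88 log2 in 7 MRT tumours, against 7.42, 7.46, 8.03 and 8.28 in untreated tumours. The groups met at their edges, and the difference was 1.27 ± 0.27 (adjusted p = 0.00016). Siglec5 ran from 6.44 through 8.12 to 10.42 in MRT tumours, against 5.67, 6.17, 6.57 and 6.98 in untreated tumours. It exceeded all untreated tumours in 5 of 7 MRT tumours, and the difference was 1.95 ± 0.47 (adjusted p = 0.00067). Gpr34 ran from 7.22 through 7.71 to 8.48, above 6.15, 6.17, 6.39 and 7.14 in untreated tumours, a difference of 1.33 ± 0.44 (adjusted p = 0.011). Cx3cr1 ran from 7.34 through 7.84 to 8.56, against 6.86, 7.04, 7.32 and 7.34, a difference of 0.88 ± 0.23 (adjusted p = 0.0012). Untreated tumour means at 6 h, 48 h and 8 d were 7.585, 7.433 and 6.463 for Gpr34 and 7.416, 7.46 and 7.141 for Cx3cr1. They were 6.529, 6.467 and 6.347 for Siglec5 and 8.143, 7.908 and 7.797 for Trem2. All 4 were thus lowest at 8 d, though limma called no member between untreated tumours at 6 h and 8 d.

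P2ry12 and Sall1 were not called in this comparison. P2ry12 ran from 8.46 through 9.29 to 9.75 in MRT tumours, within the range of 8.16, 8.77, 9.04 and 9.86 in untreated tumours, and differed by 0.28 ± 0.44 (adjusted p = 0.63). Sall1 differed by -0.53 ± 0.23 (adjusted p = 0.058), and by -0.71 ± 0.24 (adjusted p = 0.016) without MRT rats 37 and 38. Tmem119 fell by 3.00 ± 0.54 on the log2 scale (adjusted p = 1e-05), with 7.62 as the lowest, 9.58 as the median and 11.28 as the highest level in MRT tumours, against 12.22, 12.30, 12.50 and 12.67 in untreated tumours. The lowest levels, 7.62 and 7.64, were those of rats 38 and 37, and without them the difference was -2.28 ± 0.51 (adjusted p = 0.00033). Without these rats Gpr34, Cx3cr1, Siglec5 and Trem2 differed by 1.25, 0.69, 1.82 and 1.16 and all 4 remained called.

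**Figure D3:**
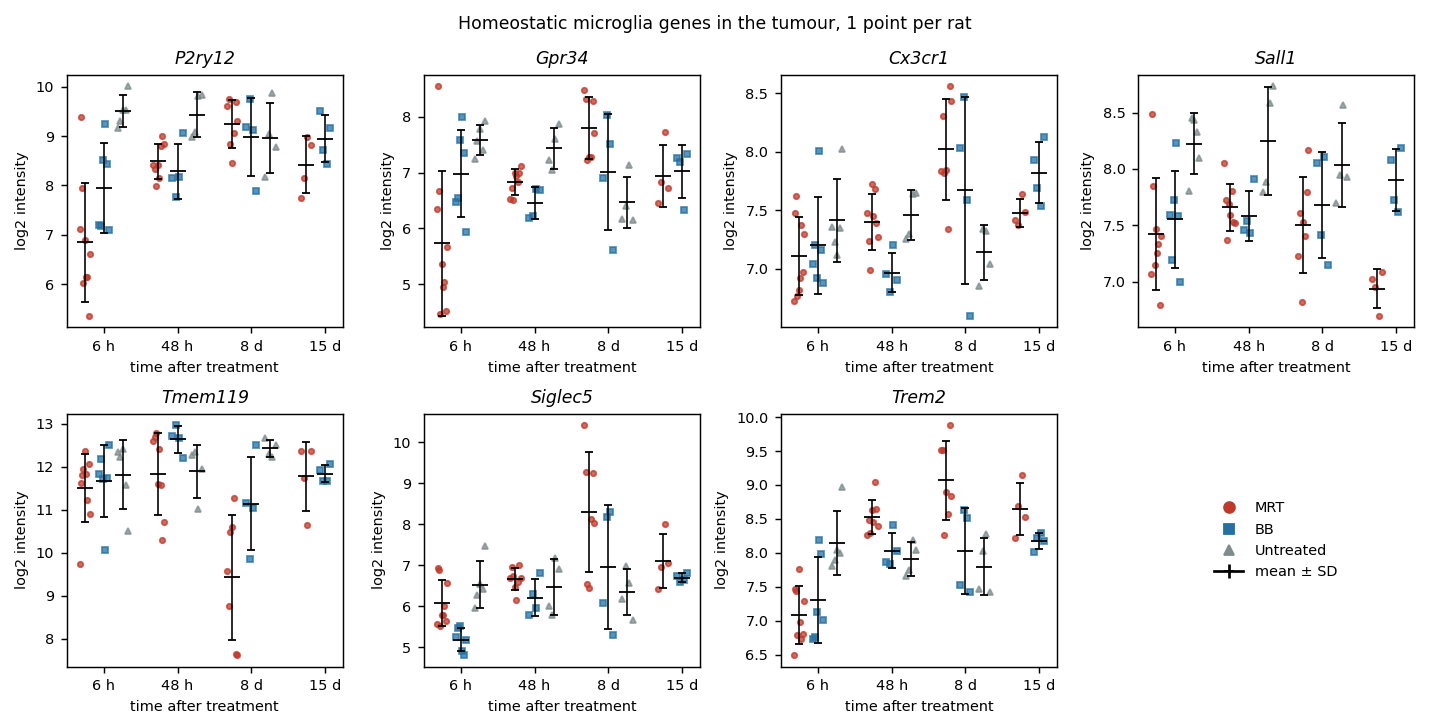
Levels of the 7 genes (log2 intensity, vertical) in the tumour by time after treatment (horizontal), with MRT, BB and untreated samples from left to right at each time and no untreated sample at 15 d; points are rats and bars are mean ± SD. At 8 d the MRT tumours reach 10.42 for Siglec5 and 9.88 for Trem2, and their Tmem119 reaches down to 7.62.

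Marker lists of other cells moved in the same MRT tumours, and their part in the changes of the members was not tested. Over all genes, 21.8% were higher and 26.1% lower in this comparison with untreated tumours at 8 d. All 15 pan-myeloid genes and all 11 T and NK cell genes were higher, as were 11 of 15 neuron genes and 8 of 8 oligodendrocyte genes, and all 9 tumour and proliferation genes were lower. The median difference of the pan-myeloid list was 1.82 and that of the members 0.88, against -0.04 over all genes. The mean of the pan-myeloid list ran from 11.43 to 12.11 log2 in MRT tumours, against 9.08 to 10.82 in untreated tumours. With the mean of the neuron list as a covariate, Cx3cr1 and Gpr34 differed by 0.54 and 0.93 and were not called (adjusted p = 0.066 and 0.14), while Siglec5, Trem2 and Tmem119 stayed called at 1.43, 0.95 and -1.74 (adjusted p = 0.025, 0.0086 and 0.0021) and Sall1 was lower by -0.87 (adjusted p = 0.0035). Of 17 other homeostatic genes 6 were higher and 6 lower. P2ry6, a UDP receptor tied to phagocytosis, was higher by 1.76 ± 0.25 and the sialic-acid receptor Cd33 by 2.00 ± 0.32, and the secreted matrix proteins Olfml3 and Sparc were lower by -3.76 ± 0.49 and -1.52 ± 0.21 (adjusted p = 1.8e-07, 1.6e-06, 3.1e-08 and 6.8e-08). Olfml3 and Sparc, like Tmem119, were higher in untreated tumours than in untreated contralateral samples, by 4.73 ± 0.27 and 1.43 ± 0.13. The kinase Syk and the phospholipase Plcg2, which act downstream of Trem2 and Tyrobp, were higher by 1.33 ± 0.23 and 1.59 ± 0.25 (adjusted p = 6.9e-06 and 8.6e-07).

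In BB tumours at 8 d limma called no member, with 2 at an unadjusted p under 0.05, although 22.9% of all genes were called. The 4 BB tumours were spread widely. Siglec5 was 5.29, 6.09, 8.18 and 8.29 log2 in BB tumours, against 5.67, 6.17, 6.57 and 6.98 in untreated tumours, so that 2 of 4 BB tumours were above the untreated range and 1 below it. Trem2 was 7.43, 7.52, 8.51 and 8.63 in BB tumours, with a difference of 0.23 ± 0.31. The lowest levels of P2ry12, Gpr34, Sall1, Cx3cr1, Siglec5 and Trem2 in BB tumours at 8 d were all those of rat 57, whose Tmem119 was the highest at 12.50. Without this rat, Cx3cr1 was higher by 0.89 (adjusted p = 0.0045) and Tmem119 lower by -1.74 (adjusted p = 0.03).

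In the contralateral hemisphere at 8 d no member was called higher than in untreated samples. Limma called 2 of 7 members after MRT and 3 of 7 after BB, all lower, while 7.91% and 5.94% of all genes were called. P2ry12 ran from 7.88 through 8.42 to 8.71 log2 in 6 MRT samples and was 8.55, 8.72, 8.77 and 8.80 in BB samples, against 9.42, 9.80, 9.92 and 9.96 in untreated samples. No irradiated sample reached the untreated range. The difference was -1.39 ± 0.40 after MRT (adjusted p = 0.019) and -1.06 ± 0.44 after BB (adjusted p = 0.14), and the MRT call was lost without untreated rat 28 or 29 (adjusted p = 0.067 and 0.051). Untreated samples at 8 d were the highest P2ry12 group in this tissue. Tmem119 ran from 7.07 through 7.24 to 7.44 in MRT samples and was 7.17, 7.39, 7.65 and 9.37 in BB samples, against 8.38, 8.78, 8.97 and 10.10 in untreated samples. The difference was -1.80 ± 0.33 after MRT (adjusted p = 0.00011) and -1.16 ± 0.36 after BB (adjusted p = 0.046). The BB call was lost without BB rat 54, 55 or 56 or untreated rat 28, 29 or 30 (adjusted p from 0.066 to 0.27). It was also lost with the compared groups alone in the fit (adjusted p = 0.16) and with array quality weights (-0.725, adjusted p = 0.091). The 2 highest levels, 9.37 in BB rat 57 and 10.10 in untreated rat 30, were in the samples with the highest tumour and proliferation means of their groups, 7.77 and 7.94 against 5.69 to 6.71 and 5.67 to 6.96, and the part of this in the Tmem119 differences was not tested.

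The MRT effect at 8 d differed between tissues. Limma called 5 of 7 members in the effect in tumours minus that in the contralateral hemisphere, in a comparison that called 37% of all genes. All 5 were positive, meaning a larger rise or smaller fall in tumours relative to untreated samples of that time. Untreated means had moved between 6 h and 8 d, though no member was called there. P2ry12 went from 9.51 to 8.96 in tumours and from 9.18 to 9.77 contralaterally. Gpr34 went from 7.585 to 6.463 and from 7.075 to 7.437. Siglec5 and Trem2 moved the same way, and Cx3cr1 was lower at 8 d in both tissues. The part of this in the differences was not tested. The differences between effects were 1.84 ± 0.52 for Siglec5, 1.75 ± 0.56 for Gpr34, 1.68 ± 0.61 for P2ry12, 1.03 ± 0.32 for Trem2 and 0.72 ± 0.28 for Cx3cr1 (adjusted p = 0.0039, 0.0099, 0.023, 0.0076 and 0.032). Without MRT tumours 37 and 38 those of Cx3cr1 and P2ry12 were 0.54 and 1.58 and were not called (adjusted p = 0.14 and 0.051). Without untreated tumour 27 they were 0.63 and 1.41 (adjusted p = 0.088 and 0.081). Without untreated tumour 30 Cx3cr1 was at 0.69 (adjusted p = 0.056). For BB at 8 d no member was called by limma in this comparison, with 2 at an unadjusted p under 0.05, against 7.76% of all genes. At 48 h no member was called for MRT or for BB by limma, with 1 and 3 at an unadjusted p under 0.05, against 2.48% and 5.7% of all genes.

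**Figure D4:**
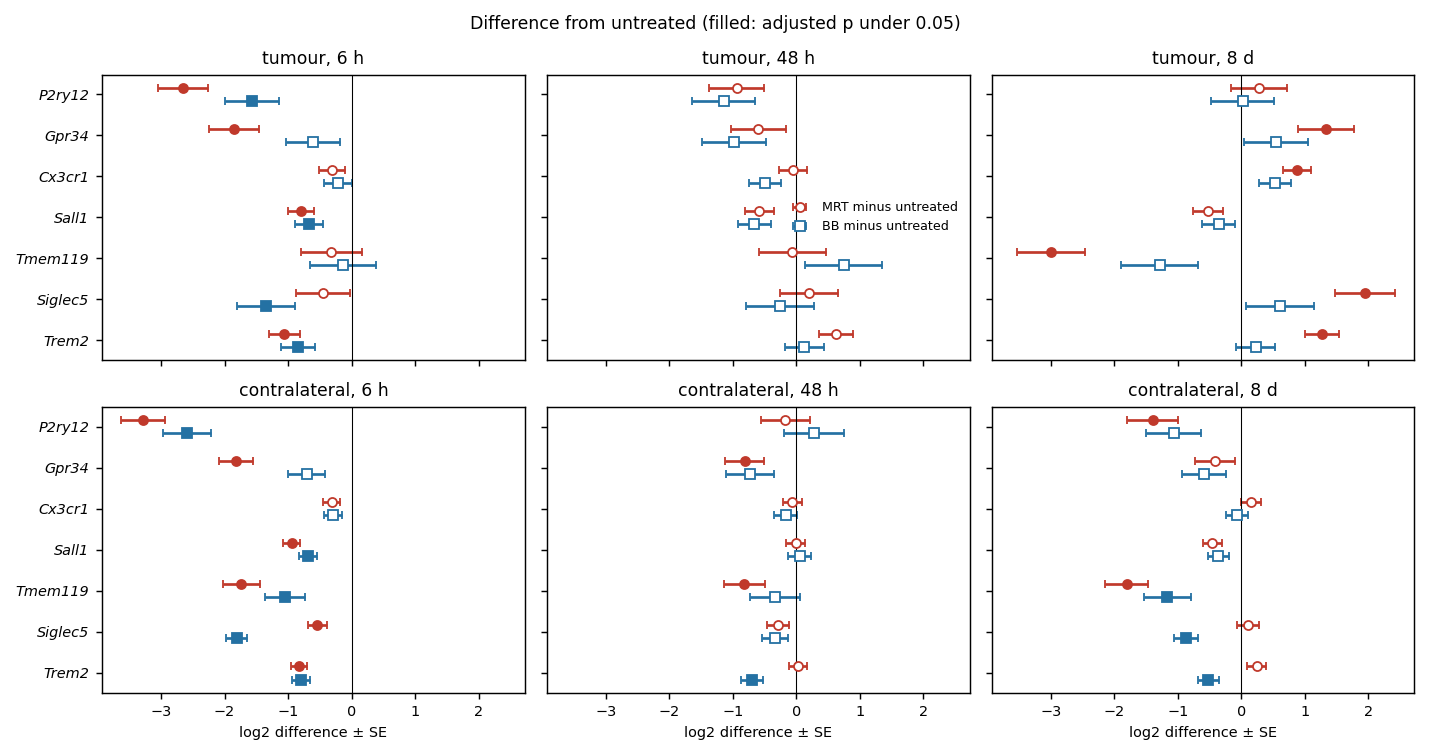
Log2 difference ± SE from untreated samples (horizontal) for the 7 genes (vertical) in tumours (upper row) and the contralateral hemisphere (lower row) at 6 h, 48 h and 8 d, for MRT (circles) and BB (squares); filled symbols have an adjusted p under 0.05 in limma. P2ry12 lies at -2.66 and -3.29 after MRT at 6 h, and at 8 d Siglec5, Gpr34, Trem2 and Cx3cr1 have filled symbols to the right of 0 in MRT tumours and open symbols in the contralateral hemisphere after MRT.

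Trem2 and Siglec5 separated MRT from BB in the contralateral hemisphere. Trem2 ran from 7.48 through 7.82 to 8.09 log2 after MRT at 48 h, above 6.84, 7.17 and 7.25 after BB, with a difference of 0.73 ± 0.16 (adjusted p = 0.0037). At 8 d it ran from 7.67 through 7.81 to 8.07 after MRT, above 7.04, 7.07, 7.13 and 7.14 after BB, with a difference of 0.76 ± 0.15 (adjusted p = 0.00071). At 15 d it was 8.22, 8.48, 8.49 and 9.06 after MRT and 7.21, 7.38, 7.38 and 7.48 after BB, a difference of 1.20 ± 0.16 (adjusted p = 1.1e-06). The groups did not overlap at any of these 3 times, and the 48 h call was lost without BB rat 51 (0.61, adjusted p = 0.089). Against untreated samples at 8 d, Trem2 was lower after BB by -0.52 ± 0.16 (adjusted p = 0.043), a call lost without any 1 of 7 of the 8 samples (adjusted p from 0.054 to 0.12), and it differed by 0.24 ± 0.15 after MRT (adjusted p = 0.39). At 6 h the difference was -0.03 ± 0.12. After MRT, Trem2 was higher at 15 d than at 8 d by 0.71 ± 0.15 (adjusted p = 0.029), and it was the one member of 7 called in a comparison in which 0.0633% of all genes were. Without MRT rat 41, whose 9.06 was the highest level, the change was 0.54 (adjusted p = 0.43), and without rat 42 it was 0.73 (adjusted p = 0.12). With the mean over the Trem2 probe sets it was 0.67 and not called (adjusted p = 0.058).

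Siglec5 was higher after MRT than after BB at 6 h, by 1.27 ± 0.14 (adjusted p = 2.1e-08), when both had fallen relative to untreated samples. Its signal was dim then, at 48 to 80 intensity units after MRT and 18 to 37 after BB. At 8 d it ran from 6.60 through 6.91 to 7.14 log2 after MRT, above 5.52, 5.91, 6.00 and 6.27 after BB, and the untreated samples were 6.44, 6.75, 6.94 and 7.01. The MRT group overlapped with the untreated one and the BB group did not. The difference of MRT from BB was 0.97 ± 0.17 (adjusted p = 0.00021), and that of BB from untreated was -0.86 ± 0.19 (adjusted p = 0.0051). At 15 d it was 7.24, 7.45, 7.69 and 7.80 after MRT and 5.88, 6.00, 6.36 and 6.39 after BB, a difference of 1.39 ± 0.19 (adjusted p = 1.5e-06). At 48 h the 2 beams differed by 0.04 ± 0.19, which was not called.

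Over the 7 members, limma called 1 higher and 1 lower in MRT than in BB contralateral samples at 6 h, 1 higher at 48 h, 2 higher at 8 d and 2 higher at 15 d, against 5.39%, 1.94%, 3.02% and 5.87% of all genes. The one lower was Gpr34 at 6 h, by -1.11 ± 0.26 (adjusted p = 0.0088), which was -1.42 (adjusted p = 6e-07) without MRT rats 7 and 10 and was not called with the compared groups alone in the fit (adjusted p = 0.13). Without those rats P2ry12 and Tmem119 were also lower than after BB, by -1.12 and -1.02 (adjusted p = 0.015 and 0.0074). Pan-myeloid genes were higher after MRT than after BB in 7, 10 and 9 of 15 at 48 h, 8 d and 15 d, and activated-microglia genes in 10, 13 and 9 of 22, with none lower. Tyrobp was higher by 1.03 ± 0.18, 1.01 ± 0.17 and 1.09 ± 0.19 at these times (adjusted p = 0.00042, 1e-04 and 9.1e-05). The mean of the pan-myeloid list at 15 d ran from 9.85 to 10.24 after MRT and from 8.70 to 9.76 after BB. P2ry12 and Sall1 were not called between the beams at 15 d, with differences of -0.01 ± 0.44 and -0.11 ± 0.17.

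**Figure D5:**
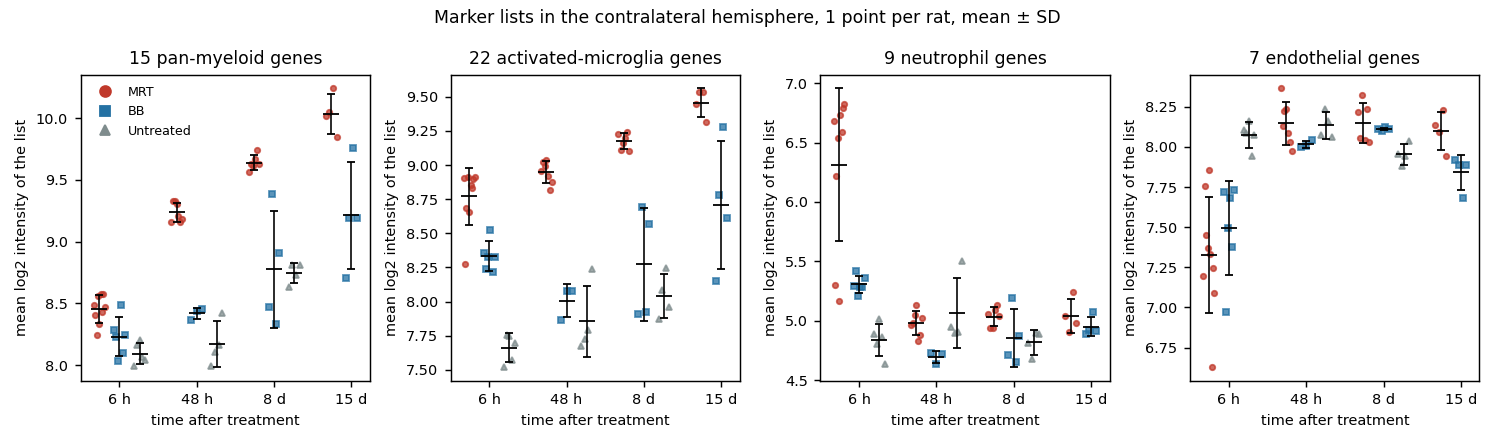
Mean log2 intensity (vertical) of 4 marker lists in the contralateral hemisphere by time after treatment (horizontal), with MRT, BB and untreated samples from left to right; points are rats and bars are mean ± SD. At 6 h the neutrophil list lies between 6.22 and 6.83 in MRT rats other than 7 and 10, and at 15 d the pan-myeloid list lies between 9.85 and 10.24 after MRT and between 8.70 and 9.76 after BB.

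In tumours limma called 2 of 7 members lower in MRT than in BB samples at 6 h, 0 at 48 h, 1 higher at 8 d and 1 lower at 15 d, against 15.7%, 0%, 1.27% and 3.05% of all genes; at 48 h no member had an unadjusted p under 0.05. At 6 h these were Gpr34 and P2ry12, by -1.25 ± 0.37 and -1.10 ± 0.37 (adjusted p = 0.017 and 0.035), and they were -1.60 and -1.47 without MRT rats 7 and 10; neither was called with the compared groups alone in the fit (adjusted p = 0.18 and 0.21). Without BB rat 47 Gpr34 and P2ry12 were at -1.05 and -0.84, and neither was called (adjusted p = 0.051 and 0.11). The P2ry12 call was also lost with the mean over its probe sets (-0.739, adjusted p = 0.076) and with array quality weights (-0.996, adjusted p = 0.053). At 8 d it was Trem2, which ran from 8.27 through 8.90 to 9.88 log2 in MRT tumours, against 7.43, 7.52, 8.51 and 8.63 in BB tumours, with a difference of 1.05 ± 0.27 (adjusted p = 0.038). Without BB rat 54, 56 or 57 in turn it was 0.88, 1.21 and 0.85 and not called (adjusted p = 0.19, 0.074 and 0.38), nor was it without MRT rats 37 and 38 (0.93, adjusted p = 0.068). The Trem2 call was also lost with the compared groups alone in the fit (adjusted p = 0.44). At 15 d it was Sall1, at 6.70, 6.95, 7.02 and 7.09 in MRT tumours, all below 7.62, 7.72, 8.08 and 8.19 in BB tumours, a difference of -0.96 ± 0.26 (adjusted p = 0.03). That call was lost when any 1 of 6 of the 8 tumours was left out (adjusted p from 0.057 to 0.11), while over all 8 the difference stayed between -1.06 and -0.87. Tmem119 in MRT tumours was higher at 15 d than at 8 d by 2.35 ± 0.54 (adjusted p = 0.0012), the one member called in a comparison with 27.9% of all genes, and was 10.66, 11.75, 12.36 and 12.37 at 15 d.

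From 48 h to 8 d, MRT tumours gained Siglec5 by 1.64 ± 0.39, Gpr34 by 0.96 ± 0.36 and Cx3cr1 by 0.62 ± 0.19 (adjusted p = 0.00085, 0.037 and 0.0082), and Tmem119 fell by 2.41 ± 0.44 on the log2 scale (adjusted p = 2.4e-05). These were 3 members higher and 1 lower in a comparison that called 30.8% of all genes, and Gpr34 and Cx3cr1 were no longer called without rats 37 and 38 (adjusted p = 0.097 and 0.1). Without treatment, no member was called between 6 h and 8 d by limma in tumours or in the contralateral hemisphere, with 1 at an unadjusted p under 0.05 in each, against 29.2% and 1.86% of all genes. BB samples gave no call between 8 d and 15 d in tumours or the contralateral hemisphere by limma, with 0 and 1 at an unadjusted p under 0.05, against 1.7% and 1.17% of all genes.

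Ordered by group mean over the 11 contralateral groups, P2ry12, Gpr34, Cx3cr1, Sall1, Tmem119 and Trem2 were all lowest after MRT at 6 h, and Siglec5 was lowest after BB at 6 h. The highest group was untreated 8 d for P2ry12 (9.77 ± 0.25, SD), Gpr34, Sall1 and Tmem119, but MRT 15 d for Siglec5 (7.55 ± 0.25) and Trem2 (8.56 ± 0.36), and untreated 48 h, through rat 18, for Cx3cr1. Most neighbours in this order did not differ by more than the larger of their SDs. Of 10 neighbouring pairs 3 did so for P2ry12, 2 for Gpr34, 3 for Sall1, 0 for Tmem119, 1 for Cx3cr1, 2 for Siglec5 and 3 for Trem2. For P2ry12 these were MRT 48 h above BB 6 h, untreated 6 h above BB 8 d and untreated 8 d above untreated 6 h. In tumours at most 1 of 10 neighbouring pairs was apart for any member; the highest group was MRT 8 d for Gpr34 (7.80 ± 0.56), Cx3cr1 (8.02 ± 0.43), Siglec5 (8.30 ± 1.47) and Trem2 (9.07 ± 0.58), and the lowest was MRT 6 h for P2ry12 (6.84 ± 1.20), Gpr34 and Trem2, MRT 15 d for Sall1, BB 48 h for Cx3cr1, BB 6 h for Siglec5 and MRT 8 d for Tmem119.

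The members also grouped by how they moved over arrays, which is given as a description because the arrays share treatment groups and processing. Over the 59 tumour arrays P2ry12 was most like Golm1 and Gpr34, with Pearson r of 0.89 and 0.89, and 0.82 and 0.92 after group means were removed. Over the 56 contralateral arrays it was most like Sall1 at 0.90, followed by Abcb1a and Abcg2 at 0.87 and 0.86, which encode efflux transporters of the blood-brain barrier; within groups these fell to 0.74, 0.40 and 0.50. Gpr34 was most like the tight-junction gene Ocln in the contralateral hemisphere, at 0.83. Trem2 was most like Tmem176b, Tmem176a and Csf1r in tumours at 0.90, 0.87 and 0.86, and Tmem176a, Tmem176b and Cndp1 in the contralateral hemisphere at 0.92, 0.91 and 0.88. Siglec5 was most like Slc9a9 in tumours and Cndp1 in the contralateral hemisphere, at 0.85 and 0.77. Sall1 was most like Lrp4 in tumours at 0.74, and Cx3cr1 was most like Pde3b in tumours and Gatb in the contralateral hemisphere, at 0.82 and 0.74. Tmem119 in the contralateral hemisphere was most like Ccm2l at 0.86, followed by Abcg2 and Col3a1 at 0.81 and 0.80. Within groups these were 0.76, 0.36 and 0.76. In this tissue its r with the mean of the tumour and proliferation list was 0.72 within groups. With the other members its r over these arrays ran from 0.26 for Cx3cr1 to 0.735 for P2ry12.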

How the data were processed

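RNA from tumour and contralateral brain was hybridised to Affymetrix 3' expression arrays, 1 sample per array, from 200 ng of total RNA, per the labels' protocols. The deposited values are intensities on a linear scale, whole numbers from 7 to 27837, normalised between arrays by the authors; array medians lay between 117 and 165. Per the submitters' processing notes, Affymetrix Expression Console was used, naming MAS5 beside RMA in most samples but only RMA for the 35 arrays of the BB groups; versions and build were not given in the sources used here. The number of arrays per group limits the precision.

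Log2 of each intensity was taken, and no further normalisation was applied; a log2 scale had been assumed for the files. Of 31099 probe sets, 57 were controls, 9780 had no symbol in the platform annotation and 436 had several. The remaining 20826 stood for 14217 genes, 4525 of them with several probe sets, of which the one brightest on average was kept. For P2ry12 the probe sets correlated at 0.88 over tumour and 0.82 over contralateral arrays, and for Trem2 at 0.96 and 0.93.

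Limma 3.58.1 in R 4.3.3 was fitted with 1 mean per tissue, treatment and time, over the arrays of a tissue or, for comparisons between tissues, over all 115 arrays, with a trended prior. P-values were adjusted by Benjamini-Hochberg over 14217 genes. Replicates are separate rats. Tumour and contralateral samples of 55 rats come from the same animal. The reported comparisons between tissues did not pair them, and a rat block that does so was run as an alternative. Deviations from group means had a median correlation of 0.19 within rats and -0.04 between rats of a group (n = 55 and 277 pairs). The fitted block correlation was 0.157. The script was tested on simulated data.

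The members and all 13 gene lists (160 of 176 genes measured) were chosen with earlier results of these data known. Besides the members, the 3 likest genes per member and tissue and at most 4 called genes per list and comparison, by size of limma's moderated t, could be named. Of 38 comparisons, 3 between 6 h and 48 h were added after the data were seen. Tools were Python 3.11.15, pandas 2.3.3, numpy 2.4.6 and matplotlib 3.10.9.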

Additional observations from a re-analysis of the deposited data

Results flagged for a closer look

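In 147 groups of 4 to 10 samples, the highest or lowest level of a member was tested against the nearest other one with Dixon's criterion, and 9 stood apart; chance alone gives about 1 in 20 groups. In untreated rat 18 at 48 h, the contralateral sample had a P2ry12 level of 5.81 log2, with 8.93 as the next value, and a Cx3cr1 level of 8.59, with 7.39 as the next. In the untreated 6 h tumour of rat 5, Trem2 was 8.97 and Cx3cr1 8.03, with 8.04 and 7.36 as the next values. In the BB 6 h tumour of rat 47, Cx3cr1 was 8.01 and Tmem119 was 10.07, with 7.20 and 11.72 as the next values. Cx3cr1 was 7.64 in the contralateral sample of MRT rat 7 at 6 h, above 7.28, and 7.15 in that of MRT rat 19 at 48 h, below 7.53. Gpr34 was 6.32 in the BB 15 d tumour of rat 60, below 7.18.

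The MRT effect at 8 d, in tumours minus the contralateral hemisphere, differed from 0 in limma for 5 members, in a comparison that called 37% of all genes. It was 1.68 for P2ry12, 1.75 for Gpr34, 0.72 for Cx3cr1, 1.84 for Siglec5 and 1.03 for Trem2 (adjusted p = 0.023, 0.0099, 0.032, 0.0039 and 0.0076). The calls of P2ry12 and Cx3cr1 were lost without MRT tumours 37 and 38 (adjusted p = 0.051 and 0.14).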

How the results depend on the processing

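Of 67 calls of a member over 38 comparisons, 38 held in every alternative run for them, and 44 in every alternative other than leaving out arrays in turn. Over all members, 3424 recomputed values comprised 3244 with the same direction and side of the threshold, 94 that lost a call, 85 that gained one and 1 that reversed: Cx3cr1 in BB tumours at 15 d against 8 d was -0.23 (adjusted p = 0.047) with array quality weights, against 0.15 as reported. The cause was not tested for any of these changes. Array quality weights gave 38 of the gains. The filter on dim values removed Gpr34 and Siglec5 from the test.

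The rat as a replicate block left the direction and the call of all 49 member values as reported; for the MRT effect at 8 d between tissues it kept the count of members called at 5. Counts for all members under alternatives were as follows. The share of all genes called in each alternative is not given beside them, so the counts are not read as results about the members. With array quality weights, MRT against BB gave 5 at 6 h and 4 at 15 d in the contralateral hemisphere, and 1 at 6 h and 5 at 8 d in tumours; BB against untreated tumours gave 2 at 48 h and 2 at 8 d; 15 d against 8 d gave 4 in MRT tumours, 3 in BB tumours and 2 in MRT contralateral samples; BB at 48 h against 6 h gave 5 contralaterally and 1 in tumours; untreated tumours at 8 d against 6 h gave 1; and the differences between tissues gave 1 for MRT at 6 h, 1 for BB at 48 h and 2 for BB at 8 d. With only the compared groups in the fit, tumours gave 1 for MRT at 6 h, 1 for MRT at 48 h, 1 for BB at 6 h and 1 for BB at 48 h against untreated, 0 for MRT against BB at 6 h and 0 at 8 d, 1 for BB at 48 h against 6 h and 1 for untreated at 8 d against 6 h; contralateral samples gave 4 for MRT at 8 d and 0 for BB at 48 h against untreated, 1 for MRT against BB at 6 h, 3 for MRT at 15 d against 8 d, 5 for BB at 48 h against 6 h and 1 for untreated at 8 d against 6 h. Without dim genes, MRT against untreated gave 3 in tumours at 8 d and 0 contralaterally at 48 h, MRT against BB gave 0, 1 and 1 contralaterally at 6 h, 8 d and 15 d and 1 in tumours at 6 h, MRT tumours at 8 d against 48 h gave 2, BB contralateral samples at 48 h against 6 h gave 1, and the MRT effect at 8 d between tissues gave 3. The mean over probe sets gave 0 and 2 for MRT at 15 d against 8 d (contralateral and tumour), 1 for MRT against BB tumours at 6 h and 1 for BB tumours at 48 h against 6 h. Quantile normalization gave 2 for MRT tumours at 15 d against 8 d and 2 for BB tumours at 6 h against untreated, and the neuron covariate gave 2 there and 1 for BB tumours at 48 h against 6 h. The alternatives without named rats were chosen after seeing the data: without MRT rats 37 and 38, MRT tumours at 8 d against 48 h gave 2, the MRT to BB contrast in 8 d tumours gave 0 and the MRT effect at 8 d between tissues gave 3, and without MRT rats 7 and 10, MRT against BB gave 4 contralaterally at 6 h. Without BB tumour rat 47 all members gave 0 calls for MRT against BB tumours at 6 h and 1 for BB tumours at 48 h against 6 h.

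With each of the 57 arrays in groups of 5 or fewer left out in turn, the counts for all members ranged as follows. The share of all genes called in each of these runs is not given, and the counts are not read as results about the members. In tumours they were 3 to 4 (6 h), 0 to 0 (48 h) and 5 to 6 (8 d) for MRT, and 2 to 4, 0 to 0 and 0 to 2 for BB, against untreated. In contralateral samples they were 5 to 6, 0 to 1 and 1 to 3 for MRT, and 5 to 5, 0 to 1 and 1 to 2 for BB. MRT against BB gave 0 to 0 (48 h), 0 to 3 (8 d) and 0 to 1 (15 d) in tumours, and 0 to 1, 2 to 2 and 2 to 2 contralaterally. For 15 d against 8 d they were 1 to 2 and 0 to 1 in MRT tumours and contralateral samples, and 0 to 0 and 0 to 1 in BB ones. For untreated samples at 8 d against 6 h they were 0 to 1 in tumours and 0 to 0 contralaterally, and 1 to 2 between untreated tissues. BB at 48 h against 6 h gave 2 to 2 contralaterally and 0 to 0 in tumours. The MRT effect between tissues gave 0 to 0, 0 to 0 and 3 to 5, and the BB effect 0 to 0, 0 to 0 and 0 to 3, at 6 h, 48 h and 8 d.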
